A study of Mus musculus with 18 samples.

Results

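The mitochondrial ribosomal protein (MRP) genes form the protein part of the mitochondrial ribosome. They were chosen by name alone: every gene of the expression table that was annotated as protein coding and whose symbol began with Mrpl or Mrps followed by a digit. This gave 68 MRP genes of 34896 genes in the table. By the unified ribosomal protein nomenclature 44 of them belong to the large subunit and 23 to the small subunit, and the remaining one, Mrps36, is assigned to the 2-oxoglutarate dehydrogenase complex and not to the ribosome. Of the 67 ribosomal members, 39 have a counterpart in bacterial ribosomes and 28 are specific to mitochondria.

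The mitochondrial ribosome sits inside the organelle and translates the few membrane proteins of the respiratory chain and ATP synthase that mitochondrial DNA still encodes. Its RNAs are transcribed in the organelle, whereas all of its proteins are encoded in the nucleus, made on cytosolic ribosomes and imported, so that the particle depends on 2 genomes. Mature neutrophils are known for a sparse mitochondrial network and for making most of their ATP by glycolysis, while the progenitors they come from are proliferating cells that respire.

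Expression was measured by RNA-seq in 9 libraries, 3 each from granulocyte-monocyte progenitors (GMP; lin-, cKIT+, SCA1-, CD16/32+, CD34+), neutrophil precursors (preNeu; Mac-1+, Gr-1+, cKIT high, CXCR4 intermediate) and mature neutrophils (matNeu; Mac-1+, Gr-1+, Siglec-, CXCR2+). All were sorted from the bone marrow of wild-type C57BL/6 mice of 6 to 12 weeks. The peak lists used came from 1 library each: the remodeller CHD4 in wild-type and Gfi1-/- GMP, the histone mark H3K4me2 in wild-type GMP, preNeu and matNeu, and ATAC-seq in wild-type cells. No source used here says whether the 3 libraries of a cell type came from separate mice, so p-values measure only the spread between these libraries, and preNeu and matNeu are populations defined by a gate.

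The values are TPM, transcript levels that are corrected for transcript length and add up to 1000000 in every library, so that they give a gene's share of the RNA and not an amount per cell. Depth is unknown. The cell-type field of the sample annotation disagreed with the sample title in 13 of 18 samples, all 9 RNA-seq libraries among them. Groups were taken from the titles, and the markers followed these: 6 GMP markers summed to 42926–44402 TPM in the GMP libraries and to at most 9091 TPM elsewhere, 6 preNeu markers to 105723–134153 TPM in preNeu and at most 6675 TPM elsewhere, and 6 matNeu markers to 30185–33576 TPM in matNeu and at most 1058 TPM elsewhere. Macrophage markers (4 of 4 in the table) summed to 232–337 TPM in preNeu against 21.7–42.5 TPM in the other cell types, eosinophil markers (2 of 2) to 791–1049 TPM in GMP against at most 20.2 TPM, and basophil markers (2 of 2) to 186–299 TPM in GMP, 269–443 TPM in preNeu and at most 8.19 TPM in matNeu. Their part in the results was not tested.

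Added together, the MRP genes took up 5038, 4780 and 5001 TPM in the 3 GMP libraries, 2094, 2059 and 1697 TPM in preNeu, and 885, 719 and 665 TPM in matNeu. The ranges of the 3 cell types did not overlap. The mean sum was 4940 ± 139 TPM (SD, n = 3) in GMP, 1950 ± 220 TPM (n = 3) in preNeu and 756 ± 114 TPM (n = 3) in matNeu, so the group's share of the RNA was 2.53-fold lower in preNeu than in GMP, and again 2.58-fold lower in matNeu than in preNeu. From GMP to matNeu the sum was 6.53-fold lower. Fewer transcripts per cell and a larger pool of other transcripts cannot be told apart in TPM, and in sorted bulk samples fewer cells of a type and less RNA per cell cannot be told apart either.

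All 68 genes were detected in GMP, each at 1 TPM or more in all 3 libraries. In preNeu 66 reached that level in all libraries and in matNeu 52 did, while 4 were under 1 TPM in all 3 matNeu libraries. All 68 passed the filter for testing (at least 1 TPM in at least 3 of the 9 libraries). One, Mrps6, passed only through its GMP libraries, so the filter favoured its fall from GMP, which is no independent result. The counts and medians below include it. Without it 60 of 67 genes were lower at the first step, 54 of 67 at the second and 63 of 67 from GMP to matNeu, with median log2 changes of -1.23, -2.06 and -3.27. Leaving it out was chosen after seeing the data. The median level of an MRP gene was 63.1 TPM in GMP, 24.8 TPM in preNeu and 5.80 TPM in matNeu.

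**Figure D1:**
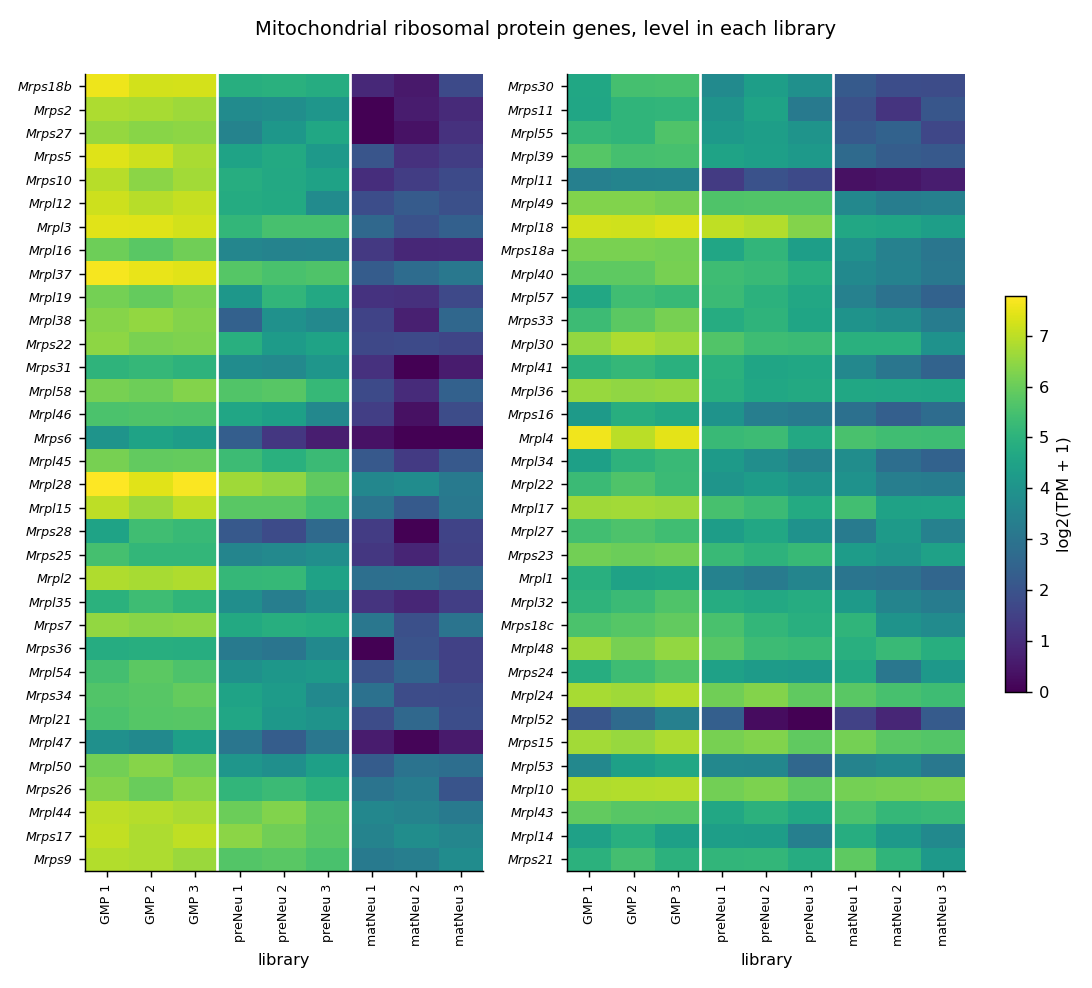
Level of each of the 68 MRP genes (rows, in 2 panels ordered by the log2 change from GMP to matNeu) in each of the 9 libraries (columns), as log2(TPM + 1) by colour. The left panel darkens from GMP to matNeu in every row, whereas rows at the foot of the right panel, such as Mrps21, Mrpl14 and Mrpl10, keep a similar colour in all libraries.

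The order of the genes changed as the level fell. Mrpl28, a large subunit protein, was highest in GMP with a mean of 199 TPM, Mrpl18 was highest in preNeu with 108 TPM, and Mrpl10 was highest in matNeu with 73.6 TPM. Across the 68 genes the rank correlation of mean levels was 0.74 between GMP and preNeu, 0.65 between preNeu and matNeu, and 0.28 between GMP and matNeu. The 5 highest genes made up 17.8% of the group's TPM in GMP, 20.3% in preNeu and 34.3% in matNeu. In GMP these were Mrpl28, Mrpl37, Mrps18b, Mrpl4 and Mrpl3. In matNeu they were Mrpl10, Mrps15, Mrpl24, Mrpl4 and Mrpl43.

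The promoters of 4 genes are shown here because these genes mark both ends of the range of change described further on. Mrps18b and Mrps2 had the deepest falls from GMP to matNeu, while Mrpl43 and Mrpl10 were among the genes that changed least. Each line gives the 120 bases before the transcription start of the RefSeq gene model (GRCm38.p6), 5′ to 3′ on the gene's strand, with capitals on every copy of CGGAAG or its reverse complement CTTCCG, the core bound by ETS-family factors such as GABPA.
Mrps18b, chr17:35916441-35916560, minus strand: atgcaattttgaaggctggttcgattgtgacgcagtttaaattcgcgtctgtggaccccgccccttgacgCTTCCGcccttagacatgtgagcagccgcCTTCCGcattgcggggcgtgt
Mrps2, chr2:28467946-28468065, plus strand: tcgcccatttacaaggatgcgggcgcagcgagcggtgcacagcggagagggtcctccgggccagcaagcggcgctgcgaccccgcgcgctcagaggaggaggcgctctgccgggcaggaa
Mrpl43, chr19:45006443-45006562, minus strand: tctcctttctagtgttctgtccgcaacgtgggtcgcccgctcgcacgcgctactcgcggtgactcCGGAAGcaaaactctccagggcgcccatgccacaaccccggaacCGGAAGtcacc
Mrpl10, chr11:97041462-97041581, plus strand: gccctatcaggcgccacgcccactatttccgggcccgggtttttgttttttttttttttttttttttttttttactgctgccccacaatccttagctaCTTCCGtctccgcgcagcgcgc
The core stands 2 times in the window of Mrps18b and 2 times in that of Mrpl43, once in that of Mrpl10, and not in that of Mrps2. It was thus present in a gene with one of the deepest falls and in genes with shallow ones.

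Over the whole group, RefSeq promoters of 250 bases before to 50 bases after the start were at hand for 61 of the 68 genes. CGGAAG was found on either strand in 33 of these 61 promoters (54.1%), against 17.2% of 27025 promoters and 32.9% of the 9333 promoters of tested genes. AAGATGGC, a core of the factor YY1, was found in 10 (16.4%), against 2.88% of all promoters and 4.97% of those of tested genes, and it can overlap CGGAAG by its first letters. GCATGCGC, a core of nuclear respiratory factor NRF1, was found in 6 (9.84%), against 2.80% and 5.59%. At least 1 of these 3 cores stood in 40 promoters (65.6%), against 20.9% of all promoters and 38.9% of those of tested genes. The E-box CACGTG was found in 4 (6.56%), against 7.24% and 10.3%, and TATAAA in 4 (6.56%), against 14.2% and 7.09%. The median log2 change from GMP to matNeu was -2.17 for the 33 genes with CGGAAG and -3.37 for the others with a promoter sequence. The letters were chosen with the levels known, and a match describes the sequence only.

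Another gene often started close by on the opposite strand. Of the 68 MRP genes, 16 (23.5%) started within 1000 bp of the start of a protein-coding gene that ran the other way, against 6.79% of 21951 protein-coding genes and 10.7% of the 11878 of these that were tested. The partners included Ppp1r10, 45 bp from Mrps18b, Fau, 59 bp from Mrpl49, and Psma2, 75 bp from Mrpl32.

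The chromatin at the start sites was compared next, with a promoter taken as 2 kb upstream to 500 bp downstream. H3K4me2, a mark of active or poised promoters, had a peak at 66 of 68 MRP promoters (97.1%, 95% Wilson interval 89.9–99.2%) in GMP, against 59.3% of all protein-coding genes and 86.6% of those tested. In preNeu the count was also 66 of 68, against 59.3% and 89.3%, and in matNeu again 66 of 68, against 56.8% and 88.0%. Mrpl35 and Mrps24 were the genes without a peak in each of the 3 lists. H3K4me2 peaks were therefore called at the same number of MRP promoters in GMP, where the median MRP gene stood at 63.1 TPM, and in matNeu, where it stood at 5.80 TPM. The highest peak at the Mrps18b promoter had a fold enrichment of 4.83 in GMP, 16.8 in preNeu and 9.89 in matNeu. That at Mrps21, whose RNA levels overlapped between the 3 cell types, had one of 3.42, 10.4 and 9.04. The medians over MRP promoters with a peak were 3.50, 10.7 and 9.52 and those over all protein-coding genes with a peak 3.56, 10.2 and 8.32, so the enrichment differed between the libraries as a whole. With a −log10 q of at least 5, GMP kept a peak at 23 of 68 MRP promoters (33.8%), against 25.5% of all and 36.5% of tested protein-coding genes. In preNeu the 66 stood against 54.4% and 86.5%, and in matNeu the 66 against 52.0% and 84.7%.

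ATAC-seq peaks, which mark accessible DNA, lay at 47 of 68 MRP promoters (69.1%, Wilson interval 57.4–78.8%), against 35.8% of all and 62.4% of tested protein-coding genes. The lists deposited for preNeu and matNeu held identical peaks and were used as 1 list, so the cell types could not be compared. CHD4, the helicase subunit of the NuRD complex, had a peak at 4 MRP promoters (5.88%, Wilson interval 2.31–14.2%) in wild-type GMP, against 8.58% of all and 12.9% of tested genes. These were Mrps28 (fold enrichment 7.99), Mrpl40 (5.58), Mrpl39 (5.53) and Mrpl44 (5.24). In Gfi1-/- GMP no MRP promoter had a CHD4 peak, against 1.65% of all and 2.45% of tested genes. The wild-type list held 35790 peaks and the Gfi1-/- list 7316, from 1 library each. The wild-type list was far longer than the set of wild-type CHD4 peaks that the study reports. Whether CHD4 left these promoters in the absence of GFI1 was not tested.

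Which MRP genes changed at the first step was asked by comparing preNeu with GMP. In preNeu 61 of 68 were lower than in GMP, none was higher and 7 were not called (limma on log2(TPM + 1), Benjamini-Hochberg adjusted p at most 0.05). All 68 log2 changes were negative, the highest at -0.11, so no p threshold could have given a higher gene. Of all 13061 genes tested, 44.3% were lower and 14.7% higher. The median log2 change was -1.23 over the MRP genes and -0.52 over all genes, and 65 of the 68 lay below the latter. These are changes on the log2(TPM + 1) scale, which understates the change of genes with low TPM.

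The scale itself mattered at this step. With TPM rescaled by median-of-ratios or 75th percentile factors, all changes moved up, the median of all genes from -0.52 to -0.09 and -0.11, and 35 and 37 MRP genes were then lower, against 28.2% and 28.7% of all genes tested. Of all calls, 25.0% were higher in TPM and 45.1% and 44.0% after rescaling. Relative to the median of all genes the median MRP gene lay at -0.71 in TPM and at -0.64 and -0.65 after rescaling. The same factors raised the all-gene median from -0.32 to -0.07 and -0.03 between preNeu and matNeu, and from -0.92 to -0.20 and -0.18 between GMP and matNeu. Higher calls were then 47.2% and 48.5% against 36.5%, and 45.2% and 45.6% against 29.6%.

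Mrpl38, a mitochondrion-specific large subunit protein, fell most at the first step on the log2(TPM + 1) scale. It stood at 81.7, 89.5 and 79.6 TPM in GMP and at 4.34, 14.1 and 11.6 TPM in preNeu, a log2 change of -3.07 ± 0.48 (SE; limma adjusted p = 0.0003). Mrps6, the counterpart of bacterial S6, went from 15.2, 22.0 and 19.1 TPM to 4.01, 1.37 and 0.577 TPM, a log2 change of -2.88 that is given as a description only. It shares its locus with Slc5a3 on the same strand, so the split of reads between them is uncertain. Mrps2 fell by 2.86 ± 0.25 on the log2 scale (limma adjusted p = 6.7e-06). The GMP and preNeu libraries of Mrpl38 and Mrps2 did not overlap.

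The first step left 7 genes without a call. Mrpl57, a short large subunit protein, stood at 24.3, 40.9 and 36.6 TPM in GMP and 38.7, 30.8 and 24.3 TPM in preNeu, and the libraries overlapped. Its log2 change was -0.11 ± 0.30 (limma adjusted p = 0.78). Mrps21 had -0.13 ± 0.34 and Mrpl41 -0.32 ± 0.28, and after either rescaling all 3 of these lay above 0 without a call. The others were Mrpl58, Mrpl32, Mrpl14 and Mrps18c, at -0.66, -0.56, -0.58 and -0.54. Fitted with GMP and preNeu alone, Mrpl58, Mrpl32 and Mrps18c were called lower and Mrpl53 was not.

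The second step was the comparison of matNeu with preNeu. In matNeu 55 of 68 MRP genes were lower than in preNeu, 1 was higher and 12 were not called, against 39.8% lower and 22.9% higher over all genes tested. The median log2 change was -2.05, against -0.32 over all genes, and 59 of 68 MRP genes lay below the latter. After rescaling, 47 were lower and 3 (Mrpl43, Mrpl4 and Mrpl10) higher under either factor, against 33.8% and 33.0% lower and 30.2% and 31.1% higher over all genes. Fitted with preNeu and matNeu alone, 5 of the calls were lost, those of Mrpl1, Mrpl22, Mrpl27, Mrps18c and Mrps28.

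On the log2(TPM + 1) scale Mrps18b and Mrpl58 fell most at this step, both by 3.83. Mrps18b is a small subunit protein, and Mrpl58 a peptidyl-tRNA hydrolase (also called ICT1) built into the large subunit. The added 1 understates falls to low TPM, so this order belongs to the scale. The mean of Mrpl58 went from 46.0 to 2.55 TPM and that of Mrps27 from 16.8 to 0.477 TPM. Mrpl58 stood at 71.5, 66.3 and 80.0 TPM in GMP, at 49.4, 52.8 and 35.8 TPM in preNeu and at 2.35, 0.957 and 4.33 TPM in matNeu. Its levels overlapped in none of the 3 cell types, yet its first step was not called (log2 change -0.66 ± 0.32, limma adjusted p = 0.1), whereas the second was (SE 0.32, limma adjusted p = 1.8e-06). Mrps27, a pentatricopeptide repeat protein of the small subunit, came next, with -3.59 ± 0.34 (limma adjusted p = 4.5e-06).

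Mrpl43 was the 1 gene that rose at the second step. It stood at 58.9, 52.6 and 51.4 TPM in GMP, at 24.5, 30.8 and 24.6 TPM in preNeu and at 46.5, 34.9 and 37.2 TPM in matNeu. The preNeu libraries were the lowest, and those of matNeu lay between them and GMP without overlap. Its log2 change was 0.55 ± 0.17 from preNeu to matNeu (limma adjusted p = 0.014), and the call was lost without matNeu replicate 1, with 0.43. From GMP to matNeu it was -0.46 ± 0.17 (limma adjusted p = 0.027), and it turned to 0.41 and 0.44 after rescaling. This call was lost without GMP replicate 1 or 2 or matNeu replicate 2 or 3, with values of -0.40, -0.48, -0.37 and -0.42. Mrpl43 overlaps Twnk, the mitochondrial DNA helicase gene, on the other strand, and how strand entered the quantification is not given in the sources used here.

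At the second step 7 MRP genes lay above 0. Beside Mrpl43 these were Mrpl52, Mrpl4, Mrpl14 (0.21), Mrpl53 (0.14), Mrpl10 (0.14) and Mrps21 (0.03), none of them called. After either rescaling Mrpl10 was called higher. Mrpl52 stood at 4.06, 0.193 and 0 TPM in preNeu and 1.90, 0.786 and 3.71 TPM in matNeu, too scattered for a call (log2 change 0.67 ± 0.62, limma adjusted p = 0.37). Without preNeu replicate 1 it was called, with 1.41. Mrpl4, a large subunit protein near the exit tunnel, stood at 195, 123 and 175 TPM in GMP, 37.3, 39.4 and 25.0 TPM in preNeu and 45.5, 41.4 and 39.9 TPM in matNeu. It fell at the first step (log2 change -2.25 ± 0.21, limma adjusted p = 9.5e-06) and had 0.34 ± 0.21 at the second (limma adjusted p = 0.19), which was called higher after either rescaling, at 0.70 and 0.75.

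**Figure D2:**
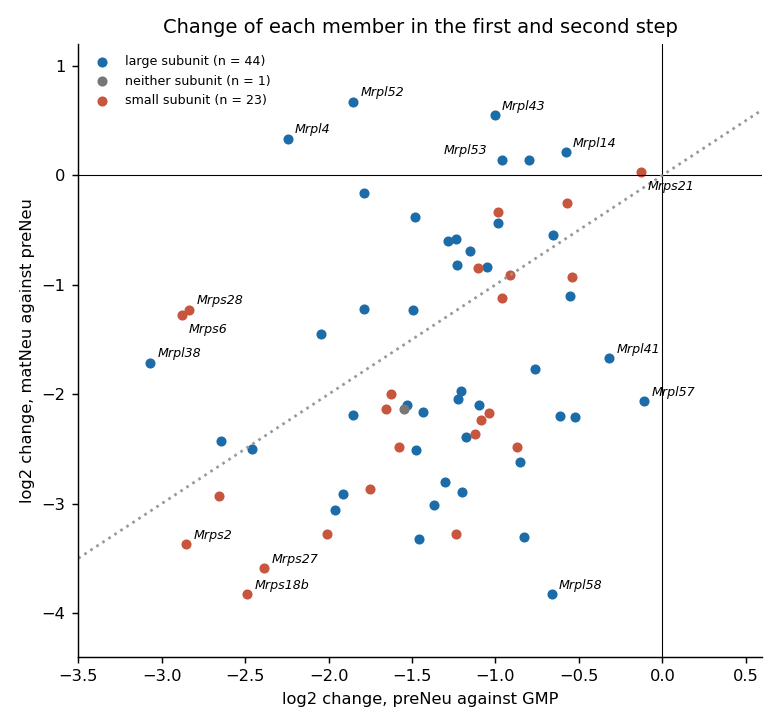
Log2 change of each of the 68 MRP genes from GMP to preNeu (horizontal) and from preNeu to matNeu (vertical), on the log2(TPM + 1) scale, coloured by subunit; the dotted line marks equal change in both steps. Most points lie below 0 on both axes, with Mrps18b, Mrps2 and Mrps27 at the lower left and Mrpl58 low only on the vertical axis, while Mrpl43, Mrpl52 and Mrpl4 lie above the horizontal 0 line.

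Over both steps 50 MRP genes were lower at each, 11 at the first only, 5 at the second only and 2, Mrpl14 and Mrps21, at neither. As shares of the group these are 73.5%, 16.2%, 7.35% and 2.94%. Of all 13061 tested genes 22.2% were lower at each, 22.0% at the first only, 17.6% at the second only and 38.1% at neither. A difference between the steps was tested as a contrast of its own, which uses preNeu in both steps. The second step was more negative than the first in 19 MRP genes and more positive in 4, against 21.5% and 26.4% of all genes tested. Without preNeu replicate 1, 12 were more negative. The largest of the 19 were Mrpl58 (a difference of -3.16 ± 0.56, limma adjusted p = 0.00093) and Mrpl45, which anchors the ribosome at the inner membrane (-2.48 ± 0.44, limma adjusted p = 0.00099). The 4 were Mrpl4 (2.58 ± 0.37), Mrpl36 (1.63 ± 0.24), Mrpl43 (1.56 ± 0.29) and Mrpl10 (0.94 ± 0.22), all of the large subunit. Mrpl36 reached its low level at the first step, from 94.8, 89.4 and 92.9 TPM in GMP to 29.1, 23.8 and 25.4 TPM in preNeu, and stood at 23.6, 23.2 and 22.7 TPM in matNeu.

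Taking both steps as one, matNeu against GMP, 64 of 68 MRP genes were lower, none was higher and 4 were not called, against 54.1% lower and 22.8% higher over all genes tested. All 68 log2 changes were negative here too, so no p threshold could have given a higher gene. The median log2 change was -3.30 with a range from -6.32 to -0.10, against a median of -0.92 over all genes, and 62 of the 68 lay below the latter. Relative to the all-gene median the MRP genes lay at -2.37 in TPM and at -2.28 and -2.30 after rescaling. After rescaling 58 were lower and 1, Mrpl43, higher, against 41.8% and 41.5% lower and 34.4% and 34.8% higher over all genes. This comparison shares its libraries with the other 2 and is not independent of them.

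**Figure D3:**
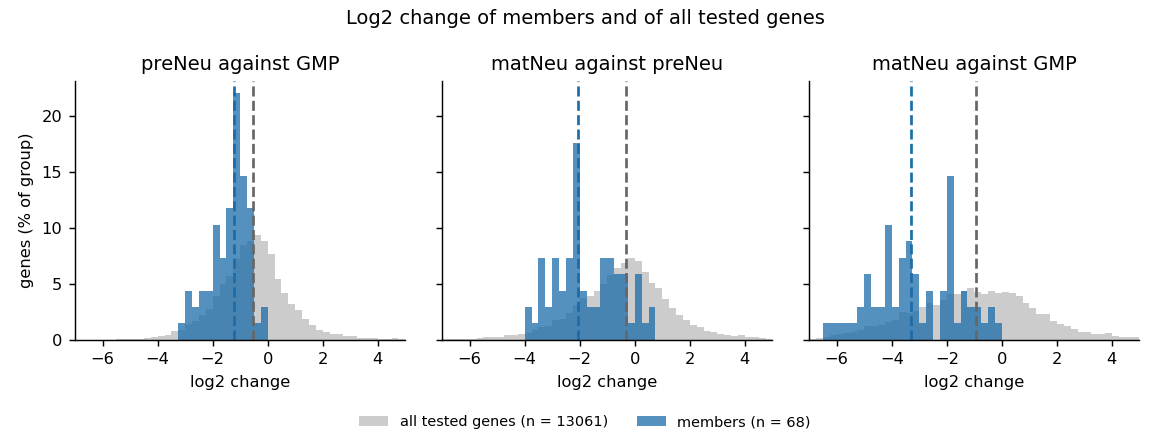
Distribution of the log2 change of the 68 MRP genes (blue) and of all 13061 tested genes (grey), as the percentage of each group per bin, in the 3 comparisons; dashed lines mark the medians. The blue medians of -1.23, -2.05 and -3.30 lie to the left of the grey medians of -0.52, -0.32 and -0.92, and the blue bars spread from -6.32 to -0.10 in the last panel.

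On the log2(TPM + 1) scale the 5 deepest falls from GMP to matNeu were all in the small subunit, and 3 of them are given in full. The added 1 understates falls to levels near 0, so this order belongs to the scale. Mrps6, with means of 18.8 TPM in GMP and 0.104 TPM in matNeu, had only -4.16 on it. Mrps18b stood at 191, 149 and 155 TPM in GMP, 28.4, 29.5 and 27.4 TPM in preNeu and 0.859, 0.431 and 2.34 TPM in matNeu, a log2 change of -6.32 ± 0.28 (limma adjusted p = 6.8e-09). In GMP only Mrpl28 and Mrpl37 had a higher mean among the MRP genes. Mrps2, the counterpart of bacterial S2, stood at 113, 107 and 98.8 TPM in GMP, 12.4, 13.4 and 15.8 TPM in preNeu and 0, 0.516 and 0.917 TPM in matNeu, with -6.23 ± 0.25 (limma adjusted p = 4e-09). Mrps27 stood at 92.8, 82.1 and 87.5 TPM in GMP and at 0, 0.295 and 1.13 TPM in matNeu, with -5.98 ± 0.34 (limma adjusted p = 4.3e-08). Their GMP, preNeu and matNeu libraries did not overlap. Mrps5 and Mrps10, counterparts of bacterial S5 and S10, followed at -5.59 ± 0.28 and -5.29 ± 0.23.

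On the same scale the deepest falls of the large subunit were those of Mrpl12 (-5.08 ± 0.27), Mrpl3 (-5.02 ± 0.20) and Mrpl16 (-4.97 ± 0.21). Mrpl37 (-4.83 ± 0.21) and Mrpl19 (-4.79 ± 0.28) came next. Mrpl12, the stalk protein that recruits translation factors, stood at 143, 123 and 134 TPM in GMP, 26.5, 25.5 and 12.5 TPM in preNeu and 2.59, 3.69 and 2.73 TPM in matNeu. Its partner at the stalk, Mrpl10, stood at 115, 116 and 118 TPM in GMP, 67.8, 75.2 and 57.8 TPM in preNeu and 70.6, 73.7 and 76.6 TPM in matNeu. The GMP levels of the 2 stalk proteins were thus close and those in matNeu lay far apart. Mrpl10 had a log2 change of -0.66 ± 0.13 (limma adjusted p = 0.00069), which turned to 0.22 and 0.25 after rescaling. Mrpl11, at the base of the same stalk, was among the lowest MRP genes, with a mean of 10.1 TPM in GMP and 0.385 TPM in matNeu and a log2 change of -3.01 ± 0.25.

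Between GMP and matNeu 4 genes were not called. Mrps21, the counterpart of bacterial S21, stood at 31.2, 42.4 and 30.9 TPM in GMP, 33.5, 34.1 and 27.1 TPM in preNeu and 57.0, 33.1 and 17.3 TPM in matNeu. The libraries of the 3 cell types overlapped, and its log2 change was -0.10 ± 0.34 (limma adjusted p = 0.8), or 0.76 and 0.79 after rescaling and 0.33 without matNeu replicate 3. Mrpl14, which faces the small subunit, stood at 20.9, 29.1 and 20.5 TPM in GMP and 27.4, 17.1 and 11.8 TPM in matNeu, with -0.37 ± 0.34 (limma adjusted p = 0.35), or 0.47 and 0.50 after rescaling. It overlaps Tmem63b on the other strand. Mrpl53, with -0.82 ± 0.35 (limma adjusted p = 0.055), or 0.0043 and 0.030 after rescaling, and Mrpl52, with -1.18 ± 0.62 (limma adjusted p = 0.1), had GMP levels that varied between libraries by more than 2-fold. Mrpl53 was called lower without GMP replicate 1 (-1.12) or preNeu replicate 3 (-0.82), and Mrpl52 without preNeu replicate 1 (-1.18). Both were called lower when GMP and matNeu were fitted alone, and Mrpl53 with a filter at 5 TPM (-0.82).

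**Figure D4:**
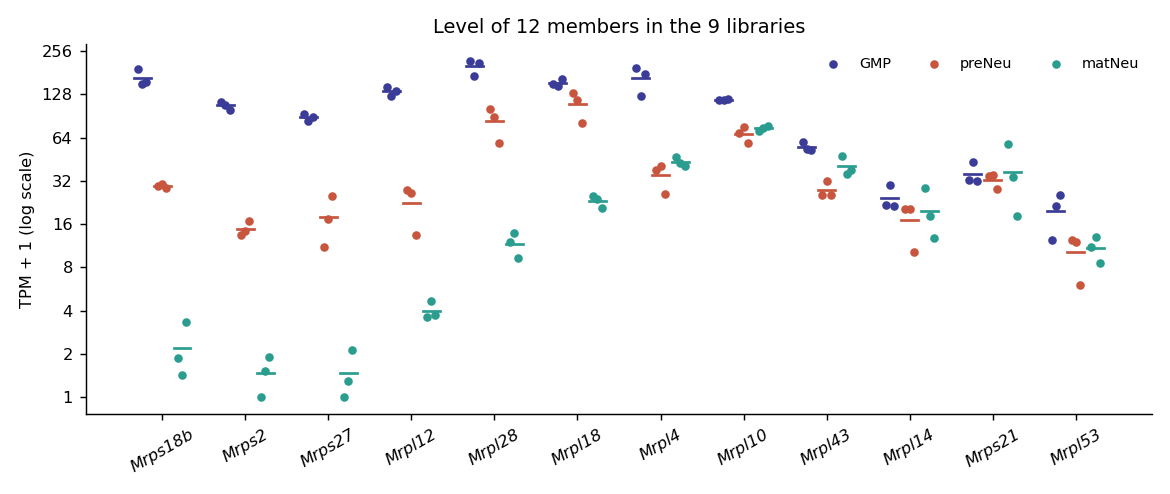
TPM + 1 on a log scale for 12 MRP genes in each of the 9 libraries (points, 3 per cell type) with the mean of each cell type (short lines). Mrps18b, Mrps2 and Mrps27 drop from over 80 TPM in GMP to under 3 TPM in matNeu, whereas the matNeu points of Mrps21 and Mrpl14 overlap those of GMP.

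To ask which genes departed from the rest, each library was also centred on its own median over the MRP genes, which removes the shared fall. On that scale 27 MRP genes were higher in matNeu than in GMP and 21 lower (limma, adjusted over all genes tested), against 75.4% and 9.30% of all genes. On this scale 20 of the 68 were not called, against 2004 of 13061 genes tested, so a smaller share of MRP genes than of all genes was called. The centre was the median of these same genes, so members on both sides of it were built in, and the counts are a description. The highest were Mrps21 (3.16 ± 0.31), Mrpl14 (2.89 ± 0.32) and Mrpl43 (2.80 ± 0.21), and the lowest Mrps18b (-3.06 ± 0.33), Mrps2 (-2.97 ± 0.34) and Mrps27 (-2.72 ± 0.41). By size alone, 25 genes lay more than 1 log2 unit above the MRP median of the GMP to matNeu change and 15 lay more than 1 unit below it. Just past the limit was Mrpl46 (-4.39) and just inside it Mrps6 (-4.16). At the first step 2 genes lay that far above and 10 that far below, and at the second 21 and 9.

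Among the remaining genes above the group, Mrps15 and Mrpl24 kept high levels. Mrps15, the counterpart of bacterial S15, stood at 102, 94.7 and 112 TPM in GMP and 69.3, 53.7 and 50.4 TPM in matNeu, with no overlap and a log2 change of -0.83 ± 0.16 (limma adjusted p = 0.00079). Like 5 others, Mrps15 lay above 0 after either rescaling. Mrpl24 stood at 106, 100.3 and 115 TPM in GMP and 54.6, 44.7 and 39.8 TPM in matNeu, with -1.20 ± 0.16 (limma adjusted p = 4.4e-05). A further 17 of those above the group had log2 changes between -2.17 and -1.32, from Mrpl57 to Mrps24, all called lower.

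The genes whose levels over the 9 libraries followed the MRP median most closely were Mrpl39, Mrpl2 and Mrpl16, each with a Pearson r of 0.997, 0.996 and 0.995. The points share libraries and TPM scale, and the value is a description.

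The 3 relatives of bacterial S18 differed in their level and change. Mrps18c, the direct counterpart in the small subunit, stood at 47.1, 51.7 and 59.5 TPM in GMP and 33.1, 14.8 and 12.4 TPM in matNeu, with a log2 change of -1.47 ± 0.32 (limma adjusted p = 0.0014) that lost its call after rescaling, at -0.61 and -0.59. Mrps18a, placed in the large subunit, went from 72.4, 72.2 and 70.6 TPM to 14.2, 9.63 and 7.22 TPM, with -2.73 ± 0.25. Mrps18b, as given above, had -6.32. Mrps18b thus exceeded both relatives in GMP and lay below both in matNeu, without overlap of the libraries. On the centred scale Mrps18c was called higher (1.79 ± 0.28), Mrps18b lower and Mrps18a neither (0.53 ± 0.25). The centre was the median of the MRP genes themselves, so these calls are a description.

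Mrpl44, which has a ribonuclease III fold, stood at 126, 119 and 109 TPM in GMP, 63.6, 77.7 and 55.6 TPM in preNeu and 11.1, 10.1 and 8.30 TPM in matNeu, with -3.47 ± 0.17 from GMP to matNeu. Mrpl45 had -4.13 ± 0.25 and Mrpl58 -4.49 ± 0.32. Mrps30, which despite its name belongs to the large subunit, had -3.27 ± 0.29, close to the group's median. Mrps36, the protein of the dehydrogenase complex, stood at 27.1, 28.6 and 27.5 TPM in GMP and 0, 2.97 and 1.82 TPM in matNeu, with -3.68 ± 0.44 (limma adjusted p = 1.6e-05).

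Both subunits were then counted. Of the large subunit 41 of 44 genes were lower in matNeu than in GMP with a median log2 change of -2.91, and of the small subunit 22 of 23 with a median of -3.62. The summed TPM of the large subunit was 1.92, 1.97 and 2.00 times that of the small in the GMP libraries, 2.25, 2.31 and 2.13 times in preNeu, and 2.19, 2.85 and 2.56 times in matNeu. The ratio was higher in every preNeu and matNeu library than in those of GMP. Of the genes with a bacterial counterpart 37 of 39 were lower (median -3.20) and of the mitochondrion-specific ones 26 of 28 (median -3.48). Of all genes tested 54.1% were lower in matNeu than in GMP, with a median of -0.92.

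The change went with the length of the coding sequence. Across the 68 genes the Spearman correlation of coding length with the log2 change from GMP to matNeu was -0.50, given as a description because the genes share libraries. It was 0.03 over 11862 tested genes with a coding length and -0.01 over the 5667 of these outside the group within its range of lengths. The 17 shortest MRP genes (261 to 444 bp) had a median log2 change of -1.95, the next 17 (477 to 603 bp) -2.81, the 17 after those (603 to 873 bp) -3.62 and the 17 longest (876 to 1326 bp) -4.13. Other genes within the same bounds had medians between -1.19 and -1.04. The shortest coding sequence, of 261 bp, was that of Mrps21. Among the MRP genes, length also went with the level in GMP (Spearman 0.47), and its part in the change was not tested.

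**Figure D5:**
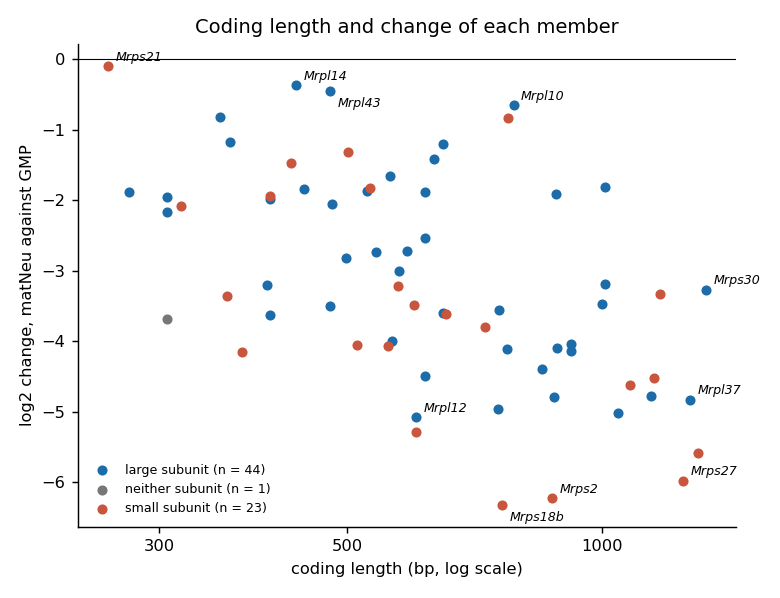
Coding length (bp, log scale) and log2 change from GMP to matNeu on the log2(TPM + 1) scale for each of the 68 MRP genes, coloured by subunit. Mrps21 at 261 bp lies at -0.10, whereas Mrps27 lies near -6 and no gene of 876 bp or more lies above -1.82.

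Pseudogenes aside, a further 10 Mrpl and Mrps genes carried another transcript type in the table and so were not members. Of these, 9 were lower in matNeu than in GMP and 1, Mrpl33, was higher, against 54.1% and 22.8% of all genes tested. Mrpl33 stood at 65.1, 84.9 and 78.1 TPM in GMP, 52.2, 44.7 and 58.2 TPM in preNeu and 223, 197 and 151 TPM in matNeu, with a log2 change of 1.31 ± 0.18 (limma adjusted p = 4.2e-05). Its matNeu libraries lay above all others. Mrpl42 had the deepest fall, -4.71 ± 0.18, and Mrps12, a protein of the decoding centre, had -2.45 ± 0.30. With these 10 added, 73 of 78 genes were lower and 1 higher. The table also held 5 Mrpl and Mrps pseudogenes, which are in none of these counts. Of these, Mrpl23-ps1 had means of 44.0 TPM in GMP, 15.8 TPM in preNeu and 80.3 TPM in matNeu. It was higher in matNeu than in GMP (0.84 ± 0.24, limma adjusted p = 0.0086). Mrpl23 itself had means of 7.86, 1.09 and 1.55 TPM, and how reads were split between the pair was not tested.

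The other genes of mitochondrial translation were counted in the same fit, GMP to matNeu. Of all genes tested in it 54.1% were lower and 22.8% higher, with a median of -0.92. Of 5 mitoribosomal proteins with other symbols, Gadd45gip1 (-3.47 ± 0.27), Ptcd3 (-3.34 ± 0.20) and Dap3 (-2.63 ± 0.15) were lower, Aurkaip1 was higher (0.70 ± 0.17, from a mean of 61.1 TPM in GMP to 100.3 TPM in matNeu) and Chchd1 was not called (0.13 ± 0.38). All 13 translation factors were lower, with a median of -3.41, led by the elongation factors Gfm1 (-5.05 ± 0.26) and Tsfm (-4.77 ± 0.24). Of 22 genes of aminoacyl-tRNA synthesis 21 were lower (median -3.88), led by the seryl-tRNA synthetase Sars2 (-5.04 ± 0.23) and the amidotransferase subunit Gatb (-4.80 ± 0.29). Of 26 genes of ribosome assembly and rRNA modification 24 were lower (median -2.67), led by Fastkd2 (-6.42 ± 0.35) and the rRNA methyltransferase Mrm3 (-5.13 ± 0.30; 0 TPM in each matNeu library), and the pseudouridine synthase Trub2 was higher (0.65 ± 0.17).

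Of 13 genes of mitochondrial transcription and RNA stability 9 were lower (median -2.82), with Lrpprc (-4.96 ± 0.21) and Tfam (-4.50 ± 0.34) in front. The share over all genes tested was 54.1%. The 13 protein-coding transcripts of mitochondrial DNA, the templates of the mitochondrial ribosome, were all lower, with a median of -4.82. Their summed level was 36705–45493 TPM in GMP, 15781–18008 TPM in preNeu and 1810–2040 TPM in matNeu, 21.7-fold lower in matNeu than in GMP. mt-Nd5 had -5.48 ± 0.17, and mt-Co2 had -7.52 ± 1.28 with matNeu libraries at 86.4, 0.0216 and 0.534 TPM.

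For comparison, 64 of 65 cytosolic ribosomal proteins were lower (median -3.57), led by Rpsa (-5.89 ± 0.15) and Rpl10a (-5.43 ± 0.23). At the first step their median was -1.86 against -1.23 for the MRP genes, and at the second -1.54 against -2.05. The second step was more negative than the first in 2 of the 65 and more positive in 10, against 21.5% and 26.4% of all genes tested. Of 67 nuclear-encoded respiratory chain subunits tested 58 were lower (median -1.67), led by Atp5g1 (-5.95 ± 0.45) and Atp5g2 (-4.92 ± 0.47), and 37 after either rescaling. Of all genes tested 54.1% were lower in TPM, and 41.8% and 41.5% after rescaling. The lists were compared by counts and medians, with no test between them.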

How the data were processed

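RNA-seq was measured in 9 libraries and chromatin in 9 samples with 1 library each. The authors deposited RNA levels as TPM. The RNA library kit was TruSeq Stranded mRNA. The submitters' processing notes name FastQC 0.11.5, MultiQC 1.6, Trimmomatic 0.36, BWA 0.7.17, MACS2 2.1.0 and kallisto 0.44.0, and the study's methods name TopHat and HTSeq with mm10 for RNA; which of these made the TPM is not given in the sources used here. Peak lists were deposited by the authors with fold enrichment (a ratio), −log10 p and −log10 q per peak as called in each library, and with an integer peak score and the summit position. The lists for H3K4me3 and GFI1 held 2180 and 3106 peaks beyond the chromosome ends of GRCm38 and were not used here. No column was left out of the expression table.

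TPM were tested with limma 3.58.1 (R 4.3.3; trend in the variance, 1 fit of all 9 libraries) after adding 1 to TPM and taking log2. The 13061 genes that reached 1 TPM in 3 or more libraries entered the fit. P-values were adjusted over all genes tested (Benjamini-Hochberg, threshold 0.05). The code was tested on data made with known changes between GMP and matNeu. It recovered 47 of 100 changes of 1 log2 unit and 92 of 100 changes of 2. Of 151 calls 12 were false. A gene without a call may therefore have changed by 1 log2 unit. Far fewer genes changed in the made data than were called in the real data. Tables were made with Python 3.11.15 and pandas 2.3.3. Gene positions and lengths are from GENCODE M21, and a peak counted for a promoter at an overlap of 1 bp or more. Wilson intervals cover counting error only. The MRP genes, the other lists and the letters searched for were chosen with earlier results of these data known. Named genes were the extremes of each comparison and of level, those departing from the MRP median by more than 1 log2 unit, those called against the group, those with a separate role, the 3 most like the median, and 2 per other list. Alternatives are given with the closing observations.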

Additional observations from a re-analysis of the deposited data

How the results depend on the processing

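The counts of lower MRP genes were unchanged to within 1.5-fold under every setting tried other than rescaling at the first step, where 35 (median-of-ratios) and 37 (75th percentile) were lower against 61 (28.2% and 28.7% of all genes, against 44.3%). The median log2 changes after these rescalings were -0.73 and -0.76 at the first step, -1.75 and -1.71 at the second and -2.48 and -2.48 from GMP to matNeu. The summed TPM became 3466 and 3697 in GMP and 982 and 1067 in matNeu. With a pseudocount of 0.1 the medians were -2.32 at the second step and -3.60 from GMP to matNeu. The higher genes at the second step numbered 3 under either rescaling and 0 with a minimum log2 change of 1, and 1 was higher from GMP to matNeu under either rescaling. After rescaling, 37 and 37 respiratory chain subunits were lower from GMP to matNeu, against 41.8% and 41.5% of all genes tested.

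Leaving out each library in turn gave 55–63 lower genes at the first step, 48–56 at the second and 63–65 from GMP to matNeu. The higher genes numbered 0 to 2 at the second step, and the medians lay between -1.32 and -1.17, between -2.09 and -1.87, and between -3.34 and -3.26. The genes with a more negative second step numbered 12–22 and those with a more positive one 4–6.

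Signs turned with rescaling (median-of-ratios, then 75th percentile) for Mrpl41 (0.18, 0.15), Mrps21 (0.37, 0.34) and Mrpl57 (0.39, 0.37) at the first step, and for Mrpl43 (0.41, 0.44), Mrpl14 (0.47, 0.50), Mrps21 (0.76, 0.79), Mrpl10 (0.22, 0.25) Mrps15 (0.044, 0.071) and Mrpl53 (0.0043, 0.030) from GMP to matNeu. At the second step the signs of Mrpl36 (0.20, 0.25), Mrps15 (0.11, 0.16) and Mrps24 (0.0096, 0.061) turned, and that of Mrpl17 with the 75th percentile alone (0.029). Leaving out each library in turn turned the sign of Mrps21 (-0.21 to 0.017) and Mrpl57 (-0.32 to 0.057) at the first step, highest without GMP replicate 2 and preNeu replicate 3, and of Mrps21 from GMP to matNeu (-0.50 to 0.33, highest without matNeu replicate 3). The cause of the differences was not tested.

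H3K4me2 peaks in GMP lay at 23 MRP promoters (33.8%) with a −log10 q of at least 5, against 36.5% of tested genes, and at 57 (83.8%) with an overlap of at least 50%, against 66.0%. That overlap gave 61 (89.7%) in matNeu, against 71.9%. ATAC peaks lay at 25 (36.8%) with the stricter q, against 38.0%. A minimum log2 change gives no other median, so none was computed.

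Whether replicate numbers pair the samples is not known. Same-numbered libraries of different cell types had correlations of their deviations between -0.04 and 0.12, and differently numbered ones between -0.13 and 0.07. The deviations of 3 libraries add up to 0, so these values cannot decide it. With the replicate number as a block, 61, 54 and 64 MRP genes were lower in the 3 comparisons. Depth is unknown from TPM, so precision rests on the 3 libraries of each cell type alone. Peak lists have no replicates.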
